A study of Mus musculus with 12 samples.

Results

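The cells described here are T cells of the mouse meninges, the membranes around the brain, whose T cell receptor was also carried by a T cell of the brain parenchyma, the brain tissue itself. A cell entered the analysis as a paired cell when it had exactly 1 productive receptor beta chain (TRB) and at least 1 productive alpha chain (TRA). It was a member when the CDR3 nucleotide sequences of its TRB and of its TRA with most UMIs (unique molecular identifiers, which count captured RNA molecules) were both those of a paired cell in a parenchyma library of the same genotype. This rule found 199 member cells among 719 paired cells of the meninges and 5207 paired cells of all libraries. Members came as 110 clonotypes, a clonotype being 1 such pair of sequences, with 66 in the meninges of NonTg mice and 44 in the meninges of 5xFADTg mice. Members were thus selected on the receptor sequences found in both tissues. Sharing and clone size, which that choice used, are given as descriptions without a test.

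All groups were CD45+ cells, that is leukocytes, sorted from C57BL/6 mice, and their receptors were sequenced with a Chromium immune profiling kit (v2). 5xFADTg mice carry the 5xFAD transgenes, mutant human amyloid precursor protein and presenilin genes driven by a neuronal promoter, and serve as a model of amyloid deposition. NonTg mice are the non-transgenic controls. There were 6 receptor libraries, with 1 meninges library and 2 parenchyma libraries (called parenchyma 1 and 2) for each genotype. The labels give no age, treatment or animal, nor the number of mice behind a library, so how much of the variation between libraries is technical is not known, and which libraries come from the same mice is not stated. With 1 meninges library per genotype, genotype and meninges library cannot be told apart. No expression values entered the analysis, so members could not be assigned to CD4+ or CD8+ T cells, and their T cell identity rests on the TRA and TRB chains alone.

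A T cell receptor is built in the thymus by joining V, D and J segments, with bases trimmed and added at the joints. The CDR3 loop spans these joints and contacts the antigen. Because the joints are made anew in each developing cell, 2 cells with the same TRA and TRB nucleotide sequences are usually taken to be progeny of 1 cell, and a clone found in 2 tissues links their T cell populations. The meninges and the brain parenchyma both hold resident memory T cells.

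A set of 8 clones with 4 or more meningeal cells illustrates what was shared. Each sequence is the CDR3 as assembled in the deposited files, 5′ to 3′, from the conserved cysteine codon to the last codon of the loop, and was identical in both tissues. Capitals mark bases that match neither the germline V segment nor the germline J segment of GENCODE M21 (GRCm38), which in TRB include the D segment. A chain without capitals either had no such base or had no computable joint, as for TRBV10, which is annotated as a pseudogene there. Clones are named by their V segments, as TRBV/TRAV, and where member clonotypes share both segments the name means the one of that genotype with most meningeal cells. The first 3 were in 5xFADTg mice and the others in NonTg mice.
TRBV1/TRAV10D TRB: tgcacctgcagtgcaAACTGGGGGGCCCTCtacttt
TRBV1/TRAV10D TRA: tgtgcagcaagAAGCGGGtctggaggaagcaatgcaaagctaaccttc
TRBV29/TRAV14D-1 TRB: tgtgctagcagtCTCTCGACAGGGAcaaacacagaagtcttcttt
TRBV29/TRAV14D-1 TRA: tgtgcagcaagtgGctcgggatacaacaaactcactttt
TRBV17/TRAV9-2 TRB: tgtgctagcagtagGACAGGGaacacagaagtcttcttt
TRBV17/TRAV9-2 TRA: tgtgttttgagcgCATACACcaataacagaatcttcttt
TRBV13-2/TRAV7D-4 TRB: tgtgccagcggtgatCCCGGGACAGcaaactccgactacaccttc
TRBV13-2/TRAV7D-4 TRA: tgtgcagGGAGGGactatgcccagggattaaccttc
TRBV13-2/TRAV8N-2 TRB: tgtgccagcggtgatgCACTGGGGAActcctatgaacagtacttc
TRBV13-2/TRAV8N-2 TRA: tgtgctacaggaaactacaaatacgtcttt
TRBV10/TRAV2 TRB: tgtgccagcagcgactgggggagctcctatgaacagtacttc
TRBV10/TRAV2 TRA: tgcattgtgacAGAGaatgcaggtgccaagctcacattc
TRBV19/TRAV9-1 TRB: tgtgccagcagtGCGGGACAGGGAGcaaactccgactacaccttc
TRBV19/TRAV9-1 TRA: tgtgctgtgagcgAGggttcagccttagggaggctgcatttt
TRBV14/TRAV9D-1 TRB: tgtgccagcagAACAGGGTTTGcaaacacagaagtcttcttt
TRBV14/TRAV9D-1 TRA: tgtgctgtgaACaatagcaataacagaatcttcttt
The joint of the TRBV1/TRAV10D beta chain held 15 such bases and that of TRBV17/TRAV9-2 7. The alpha chain of TRBV13-2/TRAV8N-2 had 0, so its sequence can be read from the germline segments alone and only its beta chain carries bases of the joint.

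The meninges libraries listed 425 cells (NonTg) and 470 cells (5xFADTg) with a productive chain, of which 349 and 370 were paired, and the parenchyma libraries held 766 to 1453 paired cells. Over the 6 libraries 15827899 to 26710709 reads and 49997 to 128700 UMIs lay on the listed contigs. A barcode of a meninges library recurred in another library 8 times. These included 2 member cells, and 0 of those had the same clonotype in the other library.

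Members made up 34.7% of the paired cells in NonTg meninges (121 of 349, 95% exact Clopper-Pearson interval 29.7 to 39.9%) and 21.1% in 5xFADTg meninges (78 of 370, 17.0 to 25.6%). These and all further intervals cover counting error only, since they rest on counts of cells or clonotypes and not on the sampling of mice. Both parenchyma libraries of a genotype contributed, but to different extents. NonTg parenchyma 1 shared 47 clonotypes with 82 meningeal cells (23.5%, 19.1 to 28.3%), and NonTg parenchyma 2 shared 19 with 39 cells (11.2%, 8.07 to 14.96%). In 5xFADTg mice parenchyma 1 shared 26 clonotypes with 42 meningeal cells (11.4%, 8.30 to 15.03%) and parenchyma 2 shared 18 with 36 cells (9.73%, 6.91 to 13.2%). In meningeal share the NonTg excess thus lay in the cells shared with parenchyma 1, while the share reached with the other 3 libraries ranged from 9.73% to 11.4%. These shares do not allow for library size. NonTg parenchyma 2 held 766 paired cells, against 1206 and 1453 in 5xFADTg parenchyma 1 and 2. Shared clonotypes held 32.6% and 27.4% of the cells of NonTg parenchyma 1 and 2, against 18.1% and 12.7% in 5xFADTg mice. Of the 110 clonotypes 0 were found in both parenchyma libraries of their genotype.

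**Figure D1:**
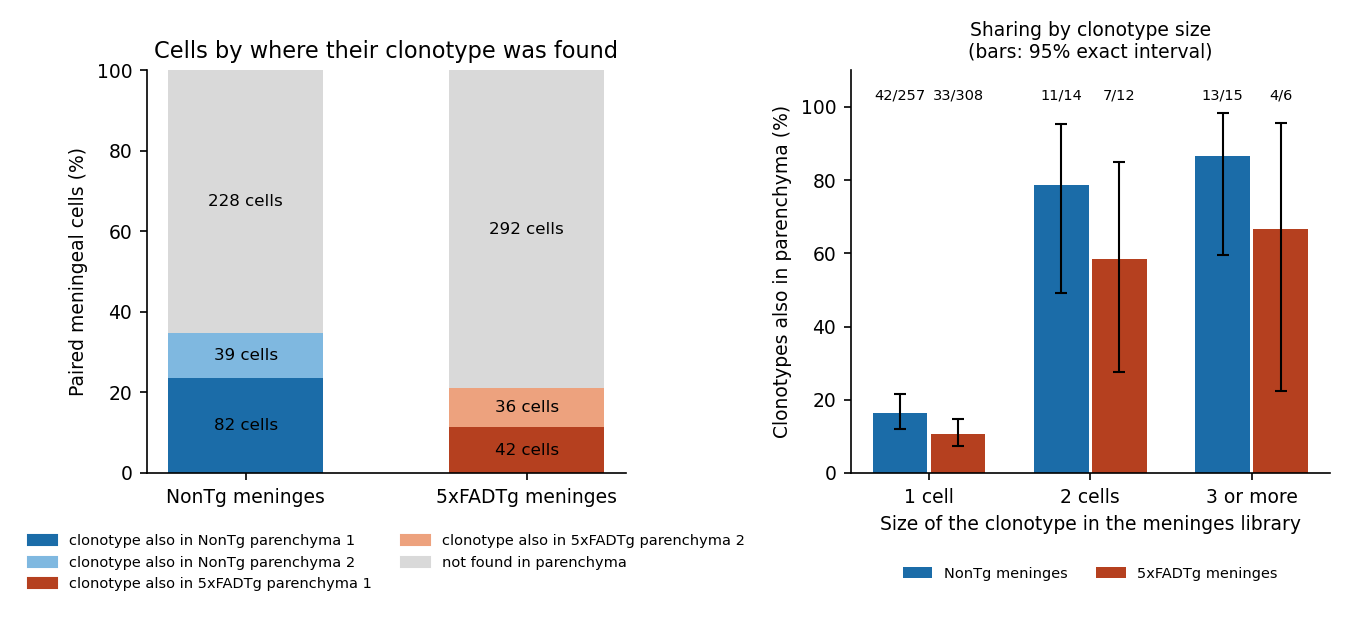
Left, percent of paired cells in each meninges library by the parenchyma library that held the clonotype, with cell numbers. Right, percent of meningeal clonotypes also found in parenchyma by their number of cells in the meninges library, with 95% exact intervals and counts above the bars. NonTg parenchyma 1 accounts for 82 of the 121 NonTg member cells, and sharing is 16.3% and 10.7% for clonotypes of 1 cell against 86.7% and 66.7% for those of 3 or more.

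Most clonotypes with several cells in the meninges were members. Of NonTg clonotypes with 3 or more meningeal cells 13 of 15 were shared (86.7%, 59.5 to 98.3%), of those with 2 cells 11 of 14 (78.6%, 49.2 to 95.3%) and of those with 1 cell 42 of 257 (16.3%, 12.04 to 21.4%). In 5xFADTg meninges the counts were 4 of 6 (66.7%, 22.3 to 95.7%), 7 of 12 (58.3%, 27.7 to 84.8%) and 33 of 308 (10.7%, 7.49 to 14.7%). The same order of size classes thus held in both libraries. Large clones are the easier to sample in either tissue, and the part of clone size in these shares was not tested.

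Shared clones were mostly small in the meninges. Of the 110 clonotypes, 75 had 1 meningeal cell, and 29 had 1 cell in both tissues. In parenchyma the clonotypes held 959 cells, with a median of 2.5 cells (NonTg) and 2 cells (5xFADTg) per clonotype and up to 94. There were 71 clonotypes with more cells in parenchyma, 34 with equal numbers and 5 with more cells in meninges, from libraries that differ in cell number. As a percent of the paired cells of each library, 74 of the 110 were higher in meninges (44 of 66 in NonTg and 30 of 44 in 5xFADTg mice). A single cell is a larger percent of the smaller meninges libraries, so neither count shows in which tissue the clones were larger. Clonotypes with 1 meningeal cell had a median of 2 parenchymal cells and those with 2 or more had a median of 10. Across the 110 clonotypes sizes in both tissues had a Spearman rho of 0.52, given as a description since clones share libraries and depth.

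**Figure D2:**
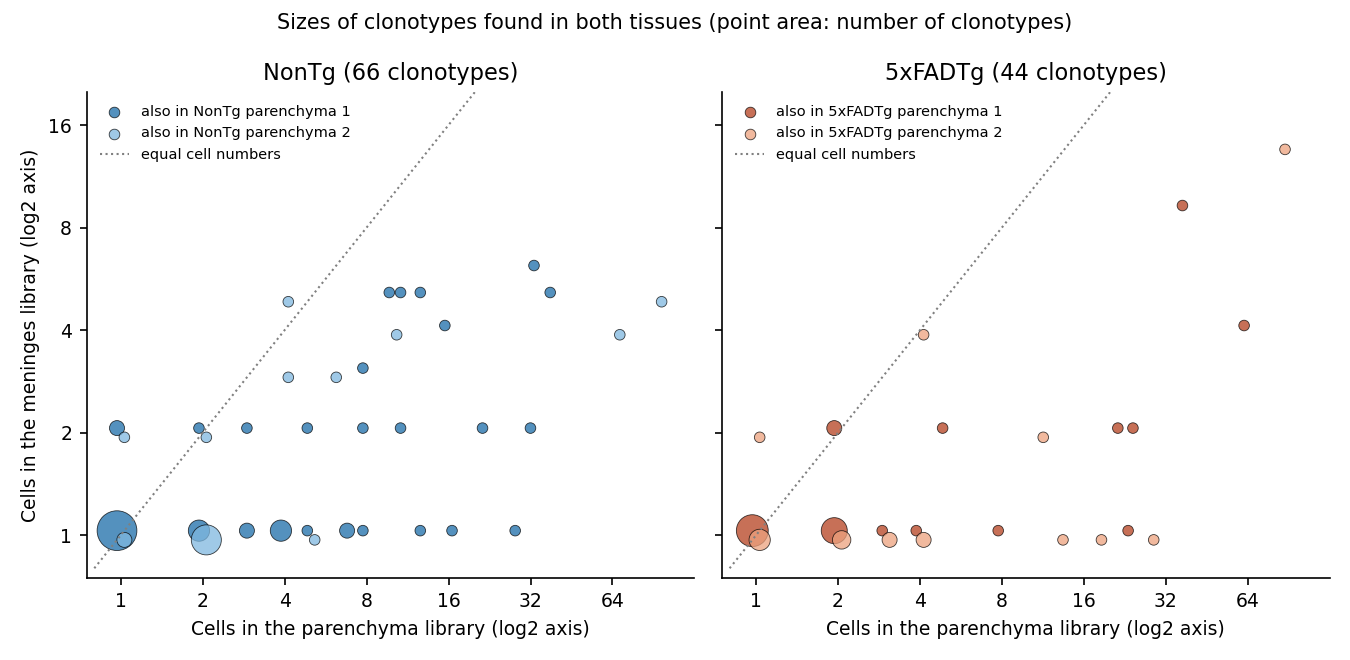
Each point stands at a pair of clone sizes, with the cells in the parenchyma library on the horizontal and the cells in the meninges library on the vertical log2 axis. Point area gives the number of clonotypes, colour the parenchyma library, and points of both libraries are moved apart slightly. Cell numbers are not scaled to the size of the libraries. On this scale 5 clonotypes lie above the dotted line of equal numbers, and the largest sizes are 14 meningeal and 94 parenchymal cells.

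A few clones carried much of the member population. In NonTg meninges 13 clonotypes of 3 or more cells held 57 of the 121 member cells (47.1%), and the largest had 6 cells (4.96%). In 5xFADTg meninges 4 such clonotypes held 31 of the 78 member cells (39.7%), and the largest alone had 14 (17.9%). Read by size in parenchyma, clones of 10 or more parenchymal cells held 43.0% of NonTg and 47.4% of 5xFADTg member cells, and clones of 1 parenchymal cell 18.2% and 19.2%. Of the largest clones of each parenchyma library (the top 10 with ties), 9 of 11 for NonTg parenchyma 1, 4 of 10 for NonTg parenchyma 2, and 5 of 10 and 3 of 10 for 5xFADTg parenchyma 1 and 2 had a meningeal cell. In 3 of the 4 libraries the largest clone of all was shared, with 39, 94 and 85 parenchymal cells. The exception was 5xFADTg parenchyma 1, whose largest clone of 71 cells was not found in meninges and whose largest shared clone had 64.

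The 5xFADTg members were led by the TRBV1/TRAV10D clone (TRBJ2-5 and TRAJ42). It had 14 cells in meninges (3.78%, 2.08 to 6.27%) and 85 in parenchyma 2 (5.85%, 4.70 to 7.18%), and ranked first in both libraries. TRBV29/TRAV14D-1 (TRBJ1-1 and TRAJ11) had 9 meningeal cells (2.43%, 1.12 to 4.57%) and 38 in parenchyma 1 (3.15%, 2.24 to 4.30%). For both clones the intervals of the 2 tissues overlapped. TRBV17/TRAV9-2 stood apart, with 4 meningeal cells (1.08%, 0.295 to 2.74%) and 64 in parenchyma 1 (5.31%, 4.11 to 6.73%). It was the only one of the 44 clonotypes of 5xFADTg mice whose intervals did not overlap. The reverse case, TRBV10/TRAV6-1, had 4 cells in each tissue, which is 1.08% of the meningeal and 0.275% (0.0751 to 0.703%) of the parenchymal cells, and its intervals overlapped. Other large parenchymal clones reached the meninges sample with 1 or 2 cells: TRBV13-2/TRAV14-3 (25 parenchymal cells), TRBV13-2/TRAV16 (22), TRBV19/TRAV9-4 (28) and TRBV2/TRAV6-6 (24).

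The NonTg members had no single leading clone. TRBV13-2/TRAV7D-4 (TRBJ1-2 and TRAJ26) had 6 meningeal cells (1.72%, 0.633 to 3.70%) and 34 in parenchyma 1 (3.20%, 2.23 to 4.44%). Behind it 6 clones had 5 meningeal cells each (1.43%, 0.467 to 3.31%) while their parenchymal counts ran from 4 to 94. The largest in parenchyma was TRBV13-2/TRAV8N-2, with 94 cells or 12.3% (10.0 to 14.8%) of parenchyma 2, a level in parenchyma above its meningeal interval. TRBV10/TRAV2 had 39 cells in parenchyma 1 (3.67%, 2.62 to 4.98%). TRBV12-2/TRAV6N-6 (13 parenchymal cells), TRBV14/TRAV9D-1 (11), TRBV19/TRAV9-1 (10) and TRBV14/TRAV3-1 (4) made up the rest, and their intervals overlapped.

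In 3 further NonTg clones the parenchymal interval also lay above the meningeal one. TRBV19/TRAV6-5 had 4 meningeal cells and 66 in parenchyma 2 (8.62%, 6.73 to 10.8%, against 1.15%, 0.313 to 2.91%). TRBV16/TRAV6D-5 had 2 meningeal cells and 33 in parenchyma 1, and TRBV1/TRAV13D-1 had 1 and 29. Over both genotypes the parenchymal interval lay above in 5 of the 110 clonotypes, the intervals overlapped in the other 105, and the meningeal one lay above in 0. For NonTg clonotypes of up to 5 meningeal cells the meningeal interval could not lie above. Their lower limits reached at most 0.467%, below every NonTg parenchymal upper limit (0.523% or more). The same held for 5xFADTg clonotypes of up to 4 meningeal cells (at most 0.295%, against 0.383% or more). Only the clones of 6, 9 and 14 meningeal cells had lower limits above these values. The split of 5 and 0 was thus largely fixed by the small meningeal counts. Small counts make these intervals wide, so a smaller difference in share was not detectable at this depth. The remaining named NonTg clones were TRBV3/TRAV6N-6 (4 meningeal and 16 parenchymal cells), TRBV20/TRAV16N (4 and 10), TRBV29/TRAV3D-3 (3 and 8), TRBV13-2/TRAV14D-2 (3 and 6), TRBV2/TRAV12-1 (3 and 4) and TRBV12-2/TRAV3-4 (2 and 22).

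Chains other than the TRB and leading TRA that define a clonotype were compared between the tissues. Of the 110 clonotypes 16 had an additional productive TRA in a meningeal cell, 12 of them had one in parenchyma too, and in 12 of 12 the sequence was the same. In 6 of these 12 that sequence was the leading TRA of another member clonotype with the same TRB, so the rule had already placed it in both tissues, and in the other 6 it defined no member. A non-productive TRA was found in meningeal cells of 20 clonotypes and in both tissues of 14, with the same sequence in 13 of 14. A non-productive TRB was found in 8 and in both tissues of 5, with the same sequence in 5 of 5, which are 4 distinct sequences because a pair of clonotypes with one TRB shared theirs. Between clonotypes of different TRB the same sequence recurred in 0 of 134, 0 of 261 and 0 of 67 pairings of these 3 kinds. Cells of 1 clonotype thus shared up to 4 chains across the tissues.

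The largest 5xFADTg clone, TRBV1/TRAV10D, carried 2 further chains. Its non-productive TRB, shown here because it lies outside the definition of the clone, was found in 13 of 14 meningeal and 70 of 85 parenchymal cells, and its non-productive TRA in 4 of 14 and 29 of 85.
TRBV1/TRAV10D non-productive TRB: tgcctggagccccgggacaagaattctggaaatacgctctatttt
TRBV1/TRAV10D non-productive TRA: tgtgctctgagtgagaggctactggag
In the NonTg clone TRBV19/TRAV9-1 the additional productive TRA was found in 4 of 5 meningeal and 7 of 10 parenchymal cells, and the non-productive TRA of TRBV10/TRAV2 in 2 of 5 and 14 of 39. The non-productive TRA of TRBV13-2/TRAV7D-4 was found in 4 of 6 and 10 of 34.
TRBV19/TRAV9-1 additional TRA: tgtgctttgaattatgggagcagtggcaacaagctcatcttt
TRBV10/TRAV2 non-productive TRA: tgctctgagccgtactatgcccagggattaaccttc

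**Figure D3:**
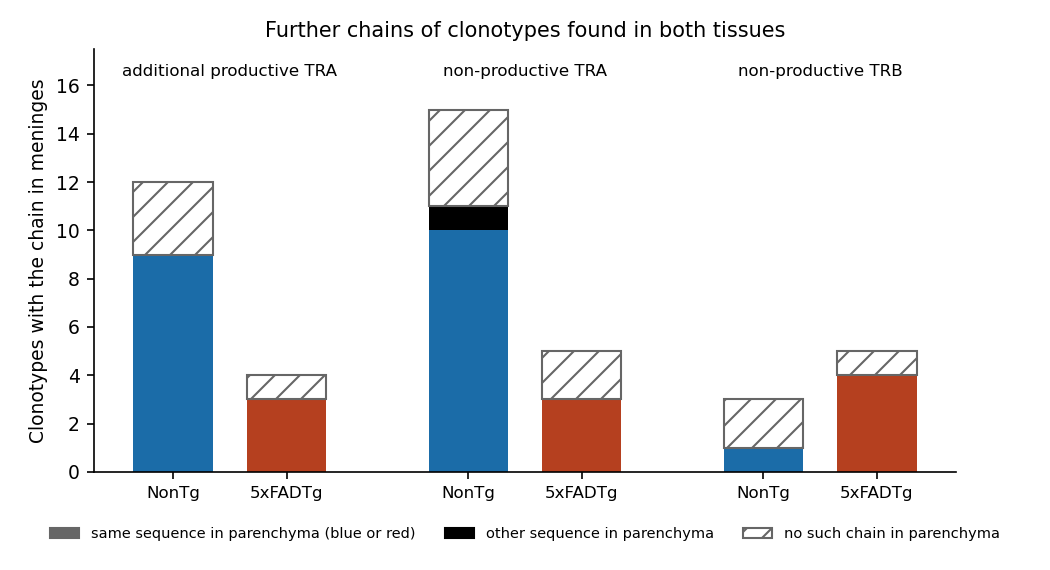
Number of clonotypes with a further chain in meningeal cells, by kind of chain and genotype. The coloured part had the same sequence in parenchyma, the black part another sequence and the hatched part no such chain there. The coloured parts hold 12, 13 and 5 clonotypes over both genotypes, and 1 non-productive TRA of a NonTg clonotype differed. Of the 12 additional TRA, 6 define another member clonotype.

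The 110 clonotypes had 106 distinct TRB sequences, because 4 beta chains each came with 2 alpha chains in separate member clonotypes. One TRBV14 beta chain paired with a TRAV9D-1 alpha chain in 5 meningeal and 11 parenchymal cells, and with a TRAV4D-4 alpha chain in 1 and 7. Each of these alpha chains was the additional TRA of the other clonotype, and the rule assigns a cell by the TRA with more UMIs, so the 2 clonotypes are not independent. The other 3 such beta chains used TRBV3 with TRAV7D-2 or TRAV13-4-DV7 and TRBV17 with TRAV16N or TRAV14-2 in NonTg mice, and TRBV13-2 with TRAV13D-1 or TRAV14N-3 in 5xFADTg mice.
TRBV14/TRAV4D-4 TRA: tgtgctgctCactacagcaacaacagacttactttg

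V, J and C labels are read from the whole contig and were compared too. TRBJ, TRAV and TRAJ labels were the same in both tissues in 110 of 110 clonotypes, and the constant gene in 109 of 109 with a call. The CDR3 sequences matched by the rule hold the end of V and much of J, and the constant gene went with the TRBJ cluster. Agreement of these labels was therefore largely set by the rule and is no separate evidence of sharing. The TRBV label was single in 105. In the other 5 clonotypes some cells had TRBV13-2 and others the joint label TRBV12-2+TRBV13-2, counted as TRBV13-2 here. TRBV13-2/TRAV8N-2 was one of them, with the joint label in 5 of 5 meningeal and 91 of 94 parenchymal cells. The others were TRBV13-2/TRAV16, TRBV13-2/TRAV14-3, TRBV13-2/TRAV9-1 and TRBV13-2/TRAV13D-1.

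Cells just outside the rule were counted. In NonTg meninges 4 paired cells had the TRB of a parenchymal cell but another leading TRA, and in 4 of 4 an additional TRA made the match. In 5xFADTg meninges there were 6 such cells, of which 0 matched through an additional TRA. The TRA alone matched in 26 and 43 cells, of which 15 and 35 carried the invariant alpha chain of iNKT cells, an innate-like T cell population. A TRBV3/TRAV5-4 clonotype matched across the genotypes, with 1 cell in NonTg meninges and 1 in 5xFADTg parenchyma 2, and it was no member.

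The joints of member receptors were diverse. Member TRB CDR3 loops were 10 to 19 residues long in NonTg and 11 to 17 in 5xFADTg mice, with 14 the most frequent length (28 of 66 and 18 of 44 clonotypes). Member TRA loops were 10 to 16 and 12 to 18 residues long. The closest member beta chains of one length differed at 2 residues, which held for 9 clonotypes, and 31 clonotypes had their nearest neighbour at 3. There were 0 pairs of different beta chains within 1 residue. In NonTg mice 2 of 66 member TRB residue sequences (3.03%, 0.369 to 10.5%) also occurred in a library of the other genotype, against 3 of 220 (1.36%, 0.282 to 3.93%) for meningeal clonotypes not found in parenchyma. In 5xFADTg mice the counts were 0 of 44 (a count of 0 allows 6.82%, here and below taken as 3 counts of the total and not as an exact limit) and 3 of 282 (1.06%).

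Loop length and joint size were compared between members and the other meningeal clonotypes, called unshared, within each library. With 2 libraries the exact sign-flip test cannot go below p = 0.5. Mean TRB CDR3 length was 14.0 residues for members and 14.1 for unshared clonotypes in both libraries. Mean TRA length was 13.6 and 13.7 in NonTg and 13.9 and 13.7 in 5xFADTg meninges, so the sign differed between libraries. Beta joints held a mean of 9.91 against 10.3 bases in NonTg and 10.36 against 10.38 in 5xFADTg meninges (difference -0.21 ± 0.27, SD, n = 2, exact p = 0.5). Alpha joints held 3.05 against 2.49 and 2.63 against 2.63 bases (difference 0.28 ± 0.40, exact p = 1). Across the 4 parenchyma libraries the differences between shared and unshared clonotypes were 0.089 ± 0.33 bases for TRB (exact p = 0.75) and 0.14 ± 0.31 for TRA (exact p = 0.5, SD, n = 4). These differences were smaller than or close to their spread between libraries.

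Members used many V and J segments. NonTg members used 18 TRBV and 35 TRAV segments, and 5xFADTg members 18 and 25, with the D and N copies of a TRAV counted under the name without that letter. Labels with a DV part, such as TRAV16D-DV11, were kept apart in this count, and merged with the TRAV of the same number they give 32 and 24 TRAV segments. The beta segments with most NonTg clonotypes were TRBV19 (9 of 66) and TRBV3 (9), followed by TRBV13-2 (7). In 5xFADTg mice they were TRBV13-2 (7 of 44), TRBV1 (4) and TRBV19 (4). TRAV16 led the alpha segments in both genotypes, with 6 and 5 clonotypes, or 7 and 6 with TRAV16D-DV11. Counted by cells the picture followed the large clones, since TRBV1 held 18 of 78 5xFADTg member cells (23.1%), of which TRBV1/TRAV10D gave 14.

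In edgeR's quasi-likelihood test with Benjamini-Hochberg adjustment, 0 of 86 segments differed between shared and unshared meningeal clonotypes (0% called at adjusted p under 0.05, 2 at unadjusted p under 0.05, and by DESeq2 0 called and 1 unadjusted). Seen from parenchyma, 0 of 121 differed (0% called, 1 unadjusted, and by DESeq2 0 and 3). Each clonotype counted once, and since both fits hold the same 110 shared clonotypes they are not independent.

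Several segments had higher values in members without passing the test. TRBV19 (chromosome 6, 41178375 to 41179048, GRCm38) was used by 9 of 66 member and 13 of 220 unshared clonotypes in NonTg meninges (13.6 and 5.91%), and by 4 of 44 and 19 of 282 in 5xFADTg meninges (9.09 and 6.74%). Its log2 fold change was 0.88 (SE 0.66, edgeR adjusted p = 0.992), and in parenchyma the member share was the higher in 4 of 4 libraries (log2 fold change 0.82, SE 0.51, edgeR adjusted p = 0.936). TRAV16 (chromosome 14, 53743104 to 53743705) was used by 6 of 66 and 12 of 220 clonotypes in NonTg and by 5 of 44 and 10 of 282 in 5xFADTg meninges (log2 fold change 1.13, SE 0.86, edgeR adjusted p = 0.992). TRAV coordinates here and below are those of the copy named without a letter, while the counts include the D and N copies. The NonTg members counted under TRAV16 were all labelled TRAV16N. With TRAV16D-DV11 merged the log2 fold change was 1.296 (SE 0.82, edgeR adjusted p = 0.986). Of its 5 member clonotypes in 5xFADTg mice before merging, 5 came from parenchyma 1 and 0 from parenchyma 2. TRBV14 (chromosome 6, 41135145 to 41135616) was used by 6 of 66 member and 5 of 220 unshared clonotypes in NonTg meninges but by 0 of 44 and 5 of 282 in 5xFADTg meninges (log2 fold change 1.24, SE 0.82, edgeR adjusted p = 0.992).

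TRAV6-5 (chromosome 14, 53491115 to 53491622) had 5 of 66 and 8 of 220 clonotypes in NonTg and 1 of 44 and 2 of 282 in 5xFADTg meninges (log2 fold change 1.14, SE 0.81, edgeR adjusted p = 0.992). TRBJ2-1 (chromosome 6, 41542754 to 41542803) had 12 of 66 and 20 of 220 in NonTg and 4 of 44 and 21 of 282 in 5xFADTg meninges (log2 fold change 0.75, SE 0.44, edgeR adjusted p = 0.992). TRBV13-2 (chromosome 6, 41121396 to 41121832), the segment most used by 5xFADTg members, had 7 of 66 and 30 of 220 in NonTg and 7 of 44 and 41 of 282 in 5xFADTg meninges (log2 fold change -0.12, SE 0.42, edgeR adjusted p = 0.992). TRBJ2-7, the J segment of TRBV13-2/TRAV8N-2 and TRBV10/TRAV2, was the most used member TRBJ in both genotypes, with 14 and 8 clonotypes, and close to the unshared share (21.2 against 24.1% and 18.2 against 20.6%).

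**Figure D4:**
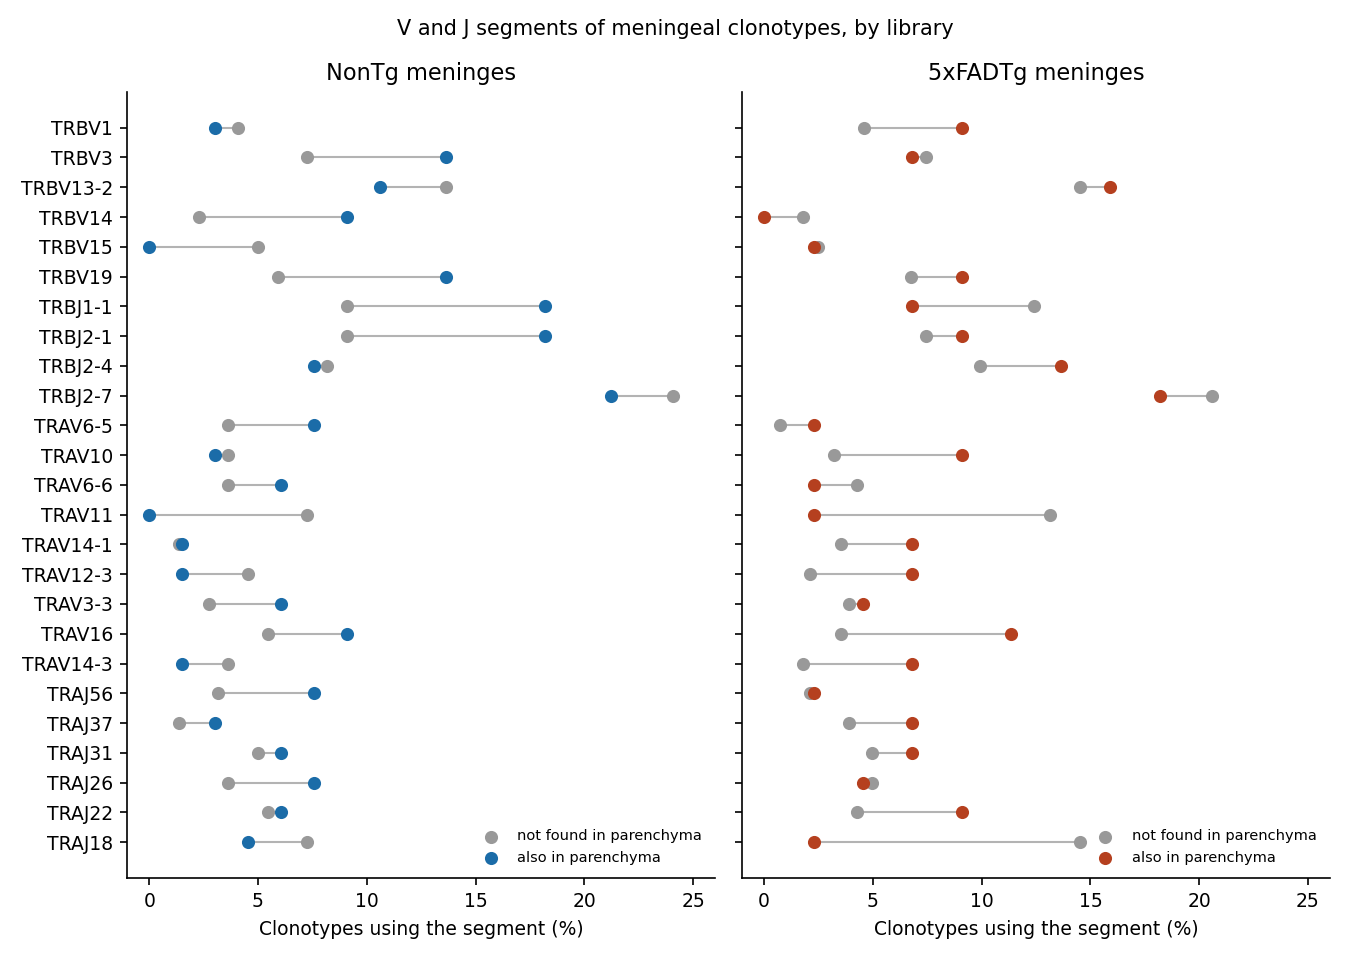
Percent of clonotypes in each meninges library that used the named V and J segments, in grey for clonotypes not found in parenchyma and in colour for members. The largest distances are those of TRAV11 and TRAJ18 in 5xFADTg meninges, where members lie at 2.27% and unshared clonotypes at 13.1% and 14.5%. TRBJ1-1 lies on opposite sides in the 2 libraries.

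TRAV11 (chromosome 14, 53519303 to 53519859) came closest to the threshold in the opposite direction. It was used by 0 of 66 member and 16 of 220 unshared clonotypes in NonTg meninges (a count of 0 allows 4.55%, against 7.27%), and by 1 of 44 and 37 of 282 in 5xFADTg meninges (2.27 and 13.1%). Over both libraries this was 1 of 110 against 53 of 502, a ratio of 0.086 (95% counting interval 0.0021 to 0.50). The log2 fold change was -3.28 (SE 0.99), and edgeR's adjusted p was 0.0759. It ranged from 0.0338 to 0.994 over the alternative settings that gave a test, and without 1 parenchyma library from 0.292 to 0.851. In parenchyma the counts were 1 of 110 and 116 of 2386 (ratio 0.19, 0.0047 to 1.06, edgeR adjusted p = 0.936). TRBV15 (chromosome 6, 41141188 to 41141658) was also rare among members, with 1 of 110 against 18 of 502 meningeal clonotypes (ratio 0.25, 0.0061 to 1.61, edgeR adjusted p = 0.992).

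TRAV11 joined to TRAJ18 makes the invariant alpha chain of iNKT cells, innate-like T cells that recognise lipids on CD1d. Receptors of this form with a loop of 15 residues are called iNKT-like. Of the 110 member clonotypes 1 was iNKT-like, TRBV29/TRAV11 (TRBJ1-4), with 1 cell in 5xFADTg meninges and 1 in parenchyma 2.
TRBV29/TRAV11 TRB: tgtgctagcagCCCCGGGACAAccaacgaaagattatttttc
TRBV29/TRAV11 TRA: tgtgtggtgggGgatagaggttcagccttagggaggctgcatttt
Among unshared meningeal clonotypes 16 of 220 (7.27%, 4.21 to 11.5%) in NonTg and 37 of 282 (13.1%, 9.41 to 17.6%) in 5xFADTg mice were iNKT-like. In parenchyma the iNKT-like share was 0 of 47, 0 of 19, 0 of 26 and 1 of 18 for shared clonotypes and 2.86, 3.26, 4.28 and 6.92% for unshared ones, in the order NonTg 1 and 2, 5xFADTg 1 and 2. It was lower in shared clonotypes in 4 of 4 libraries, by 2.94 ± 1.21 percentage points (SD, n = 4, exact sign-flip p = 0.13, the smallest possible, adjusted p = 0.417 over 10 values). MAIT-like receptors (TRAV1 with TRAJ33 and a loop of 12 residues), those of another innate-like population, were found in 0 of 66 and 0 of 44 member clonotypes (which allows 4.55% and 6.82%) and in 2 of 220 and 0 of 282 unshared ones. The part of clone size in these differences was not tested.

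TRAJ18 (chromosome 14, 54200777 to 54200842) was also used outside iNKT-like receptors. In NonTg members 3 of 66 clonotypes used it with other V segments, among them the clone TRBV19/TRAV9-1. Its log2 fold change in meninges was -1.49 (SE 0.63, edgeR adjusted p = 0.822).

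In the lists of related segments 0 were called. Of the 6 TRBJ1 segments 1 had a positive and 5 a negative fold change in meninges (median log2 fold change -0.47), and of the 6 TRBJ2 segments 4 and 2 (0.21), against a median of -0.059 over the 86 segments tested. TRBJ1 segments were used by 30.3% of member and 33.2% of unshared clonotypes in NonTg and by 29.5 and 38.7% in 5xFADTg meninges. TRAJ segments from TRAJ61 to TRAJ31, which lie nearer the V segments, were used by 56.1 and 45.9% in NonTg and by 47.7 and 43.6% in 5xFADTg meninges. Without NonTg parenchyma 1 the mean difference of 7.13 points became -1.24. Here 11 of 15 fold changes were positive (median 0.42), and for TRAJ30 to TRAJ2 3 of 11 (median -0.19). Both share differences had exact p = 0.5 with 2 libraries, and in the 4 parenchyma libraries exact p = 0.375 each. The 3 TRBV13 segments had negative fold changes (median -0.36), and their list was used by 21.2 against 29.1% of NonTg and 27.3 against 31.6% of 5xFADTg clonotypes. Of the TRBV segments common in iNKT cells (TRBV13 family, TRBV29 and TRBV1) 1 of 5 was positive, and of those common in MAIT cells (TRBV13 family and TRBV19) 1 of 4.

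Cells with a further alpha chain were concentrated in some clones. An additional productive TRA was present in 21 of 121 NonTg (17.4%, 11.1 to 25.3%) and 5 of 78 5xFADTg member cells (6.41%, 2.11 to 14.3%), with overlapping intervals, against 8.33% and 8.22% of unshared meningeal cells. All 21 NonTg cells belonged to clones shared with parenchyma 1 (25.6% of 82), and the clones shared with parenchyma 2 had 0 of 39. Members exceeded unshared cells by 3.61 ± 7.66 points on average over both meninges libraries (SD, n = 2, exact p = 1), and without NonTg parenchyma 1 this was -7.36. TRBV14/TRAV9D-1 and TRBV19/TRAV9-1 alone gave 4 cells each. In parenchyma the share was lower in shared than in unshared cells in 4 of 4 libraries, with 3.26% against 10.4% on average (difference -7.15 ± 5.47 points, SD, n = 4, exact sign-flip p = 0.13, adjusted p = 0.417). TRBC1 was used by 33.9% of NonTg and 30.8% of 5xFADTg member cells, and by 33.3% and 37.7% of unshared ones.

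Median UMI counts of both chains were lower in members than in unshared meningeal cells. The median TRB count was 9 UMIs in NonTg and 8 in 5xFADTg member cells, against 10 and 9 in unshared cells. Quartiles of 6 to 15 and 4.25 to 12 UMIs in members overlapped those of unshared cells (6 to 15 and 5 to 14). The median TRA count was 56 UMIs in NonTg members against 89.5 in unshared cells, and 42 against 53 in 5xFADTg mice (mean difference -22.2 ± 15.9, SD, n = 2, exact p = 0.5). Quartiles were again wide, with 6 to 158 UMIs in NonTg members. In parenchyma the TRB median was 7.25 in shared and 8.25 in unshared cells on average (difference -1 ± 0.816 UMIs, SD, n = 4, higher in shared cells in 0 of 4 libraries, exact p = 0.25, adjusted p = 0.625). Shared cells there also had the lower TRA median in 4 of 4 libraries (-4.75 ± 4.99 UMIs, SD, n = 4, exact p = 0.13, adjusted p = 0.417). Both chains had at least 2 UMIs in 116 of 121 (95.9%) and in 72 of 78 (92.3%) member cells.

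Within single clones TRA counts ran over a wide range. In TRBV1/TRAV10D the 14 meningeal cells had 1 to 157 TRA UMIs (median 50) and parenchymal cells a median of 25. TRBV13-2/TRAV8N-2 was low in both tissues, with 4 to 9 TRA UMIs (median 7) in its 5 meningeal cells and a median of 8 in parenchyma, while its TRB medians were 9 and 6.5. TRBV17/TRAV9-2 had 67 to 135 TRA UMIs in meninges (median 129) and a median of 52.5 in parenchyma. The 3 clones differed widely in TRA counts and less in TRB counts.

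The same clones were set side by side in both tissues, 1 pair per parenchyma library. Median TRB counts in meninges and parenchyma were 9 and 8 UMIs for NonTg parenchyma 1, 9 and 7 for NonTg parenchyma 2, 7 and 7 for 5xFADTg parenchyma 1 and 9.5 and 7 for 5xFADTg parenchyma 2. Meningeal medians were higher in 3 of 4 pairs (difference 1.38 ± 1.11, SD, n = 4, exact sign-flip p = 0.25, adjusted p = 0.75 over 3 values). TRA medians were 59 and 48, 30 and 51, 38 and 48.5, and 43 and 31 UMIs in the same order, higher in meninges in 2 of 4 pairs (difference -2.12 ± 16.3, exact p = 1). Cells with an additional TRA made up 25.6 and 8.36%, 0 and 0%, 11.9 and 4.13%, and 0 and 0.543% (difference 6.12 ± 8.34 points, exact p = 0.5, adjusted p = 0.75). Pairs of 1 genotype share the meninges library but no clonotype.

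**Figure D5:**
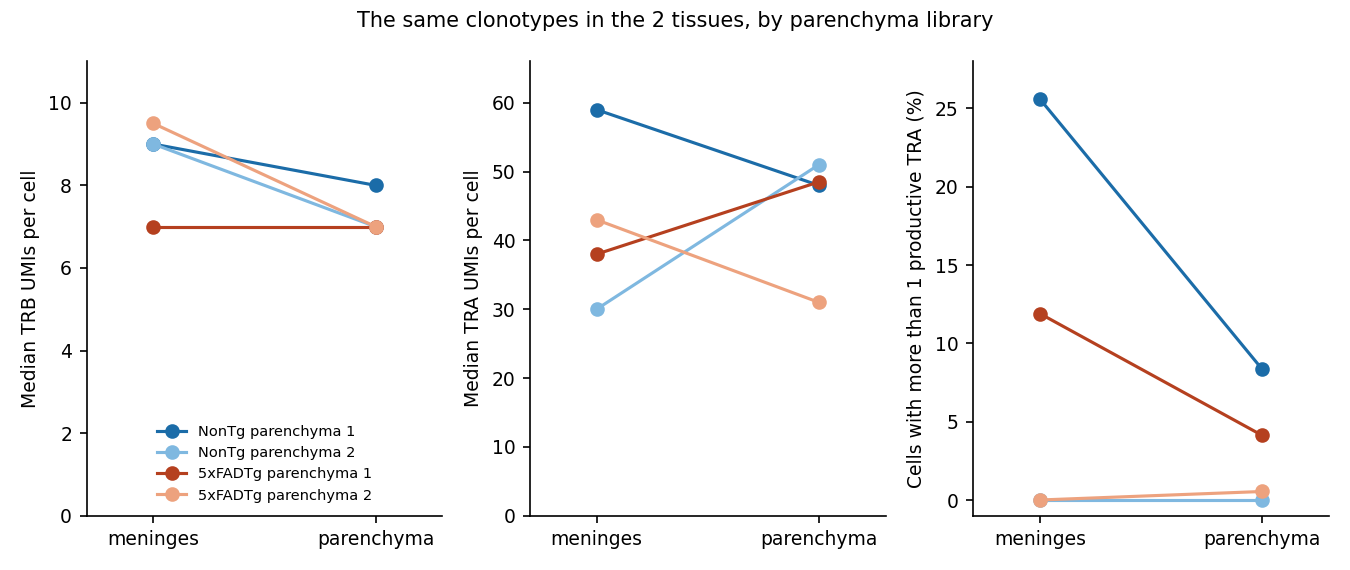
Cells of the shared clonotypes in meninges and in parenchyma, with 1 line per parenchyma library. Panels show the median TRB UMIs per cell, the median TRA UMIs per cell and the percent of cells with more than 1 productive TRA. TRB medians lie between 7 and 9.5, TRA lines cross, and only the lines of parenchyma 1 of each genotype start above 10% in the last panel.

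Sharing was also counted from the parenchyma, as a description, since the rule selected on it and both parenchyma libraries of a genotype were matched to a single meninges library. In NonTg mice 7.76% and 4.23% of the clonotypes of parenchyma 1 and 2 were found in meninges (5.99 ± 2.49%, SD, n = 2), and in 5xFADTg mice 3.96% and 2.30% (3.13 ± 1.17%). These clonotypes held 32.6% and 27.4% of NonTg (30.03 ± 3.70%) and 18.1% and 12.7% of 5xFADTg parenchymal cells (15.4 ± 3.83%). The 2 libraries of a genotype thus did not overlap those of the other in either share. A shared clonotype had on average 7.38 and 11.1 parenchymal cells in NonTg and 8.38 and 10.2 in 5xFADTg mice, and these ranges overlapped. At the cell number of the smallest parenchyma library the expected share of clonotypes was 9.16 and 4.23% for the NonTg libraries against 4.86 and 3.19% for those of 5xFADTg mice, which overlapped. The expected shares of meningeal cells at that number were 33.1% in NonTg and 18.7% in 5xFADTg mice.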

How the data were processed

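T cell receptor libraries of sorted CD45+ cells (6 libraries) were analysed, and the 6 gene expression samples were not analysed here. The deposited tables list each assembled contig with its segments, CDR3 and raw counts of reads and UMIs, per the file headers, and the counts carry no normalization. Cell Ranger 6.0 and build mm10 were used, per the submitters' processing notes, and other filters behind the lists were not given in the sources used here.

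Paired cells alone were kept; this drops cells with several TRB (possible doublets), and no doublet caller was run. Joint bases were those left after matching germline V and J ends (at least 6 bases) of GENCODE M21. Segments of at least 10 clonotypes were tested with edgeR 4.0.16 (limma 3.58.1, R 4.3.3) with library as block and the number of clonotypes as library size. The fits were also run on simulated counts with 4-fold changes in frequently used segments. Those runs do not show the power for smaller changes or rarer segments. The meninges fit has 1 residual degree of freedom and borrows its spread across segments. DESeq2 1.42.0 was an alternative. SE is the log2 fold change over the normal quantile of its p, or over the root of F where larger. Receptor values were compared by exact two-sided sign-flip tests over libraries with Benjamini-Hochberg adjustment within each family. Other steps ran in Python 3.11.15 (scipy 1.17.1, numpy 2.4.6, pandas 2.3.3), with plots by matplotlib 3.10.9.

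Named clonotypes had at least 3 meningeal or 20 parenchymal cells, were iNKT-like or MAIT-like, crossed genotypes or had differing labels. Named segments were those called, the 3 TRBV, 3 TRAV, 2 TRBJ and 2 TRAJ with most member clonotypes per genotype and the 3 of smallest p each way. Single values named beyond this rule were chosen after they were seen. Members and lists were chosen with earlier results of these data known. Same-numbered parenchyma libraries were checked for pairing (correlation of deviations 0.039 over 121 segments) and were not treated as pairs.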

Additional observations from a re-analysis of the deposited data

Results flagged for a closer look

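Some meningeal cells outside the definition of a member carried a TRB that was also found in parenchyma. Among meningeal cells with 1 TRB and no TRA, the TRB was that of a paired parenchymal cell of the same genotype in 16 of 36 NonTg cells (44.4%, 27.9 to 61.9%) and in 21 of 73 5xFADTg cells (28.8%, 18.8 to 40.6%). In the parenchyma of the other genotype it was found for 0 of 36 and 0 of 73, which allows up to 8.33% and 4.11%, taken as 3 counts of the total. Among meningeal cells with 2 or more TRB, 9 of 22 NonTg and 5 of 19 5xFADTg cells had a TRB of a paired parenchymal cell of the same genotype, and 0 of 22 and 0 of 19 one of the other. For paired cells the TRB alone matched in 125 of 349 and 84 of 370. The cells with no TRA or with 2 or more TRB stand out because the comparisons do not use them. Their matches also exceed those with the other genotype.

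Chains other than the pair that defines a clonotype also recurred. The same additional productive TRA was found in both tissues in 12 clonotypes, the same non-productive TRA in 13 and the same non-productive TRB in 5, against 0 in pairings of clonotypes of different TRB. Of the 12 additional TRA 6 define another member clonotype of the same TRB, and the 5 non-productive TRB are 4 distinct sequences.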

How the results depend on the processing

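The count of called meningeal segments rose from 0 to 1, each time TRAV11, without the filter on segments (edgeR adjusted p = 0.0471), with clonotypes by TRB alone (0.0449) and without meningeal cells of a barcode also in parenchyma (0.0338). The cause was not tested. Leaving out a parenchyma library gave 0 and 0 calls (lowest and highest). The parenchymal count was 0 throughout. With TMM factors 11 parenchymal segments had an unadjusted p under 0.05 in place of 1, and with cells counted 34. No meningeal segment reached 10 clonotypes when only clonotypes of 2 or more cells were kept, and leaving out a meninges library leaves that fit no residual degrees of freedom, so both give no call.

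Differences between shared and unshared clonotypes changed sign as follows. With clonotypes of 2 or more cells, the parenchymal differences were -0.0534 residues for TRB length, -0.00992 for TRA length and -0.133 bases for TRB joints. With cells counted, TRB joints in meninges gave 0.481 and TRA length in parenchyma -0.224. Leaving out 1 library at a time, ranges in meninges were -0.117 to 0.0141 (TRB length), -0.0682 to 0.179 (TRA length), -0.00386 to 0.559 (TRA joints), -1.24 to 10.2 points (TRAJ61 to TRAJ31) and -7.36 to 9.02 points (additional TRA). The lowest values for TRAJ61 to TRAJ31 and for additional TRA came without NonTg parenchyma 1, whose shared clones hold the 21 NonTg member cells with an additional TRA. In parenchyma they were -0.0375 to 0.103 (TRB length), -0.0647 to 0.177 (TRA length), -0.168 to 0.345 (TRB joints) and -0.0523 to 0.330 (TRA joints). The TRAJ18 fold change in parenchyma was 0.96 without iNKT-like cells and ran from -1.86 to 0.031 without 1 library (lowest without NonTg parenchyma 1, highest without 5xFADTg meninges).

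For the same clones in both tissues the TRA difference was 3.75 UMIs by TRB alone, 4.75 with at least 2 UMIs per chain, 0.13 without cells of a shared barcode and -6.83 to 4.17 without 1 library. The genotype difference in cells per shared clonotype was 0.0856, and -1.97 at the smallest library, -0.0770 by TRB alone, -0.185 with at least 2 UMIs and -1.75 to 1.92 without 1 library. Without 1 parenchyma library of the same genotype the member share was 11.2 or 23.5% in NonTg meninges, against 34.7% with both. In 5xFADTg meninges it was 9.73 or 11.4%, against 21.1% with both. The lower value of each genotype came without parenchyma 1. A replicate block cannot change the genotype differences of -2.87 points of clonotypes and -14.7 points of cells, since the mean of paired differences is the same. Settings without iNKT-like cells, with the joint TRBV label kept apart, with DV labels merged (0 calls, TRAV11 edgeR adjusted p = 0.102) and at the smallest library for meningeal shares were added after the data were seen. Of 819 values 32 changed sign, and with 1 meninges library per genotype and 199 member cells small differences could not be resolved.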
